A study of Mus musculus with 18 samples.

Results

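A group of 9 genes for receptors that guide T cell migration was followed through both experiments of the series. They are the chemokine receptor genes Ccr2, Ccr4, Ccr7, Ccr8, Ccr9, Cxcr3, Cxcr4 and Cxcr6, and S1pr1, which encodes a receptor for the lipid sphingosine-1-phosphate. The 9 genes were taken by symbol, out of 24391 genes in each of the deposited tables, and all 9 have a row in both tables, which together hold 18 libraries. The libraries came from the hybridoma E2-10HA, a line of mouse T cells (hybridomas are T cells fused to a tumour line so that they grow without end), grown in IMDM medium with a low serum content. Total RNA was depleted of ribosomal RNA and sequenced with a stranded kit. In the hairpin experiment, 3 libraries came from cells with an shRNA against L3MBTL3 in the pLKO.1 vector and 3 from cells with a scramble hairpin. A single hairpin sequence against L3MBTL3 was used, under puromycin selection. In the rescue experiment every group was depleted of RBPJ and selected with blasticidin. These cells carried the RBPJ F261A/A284V form, RBPJ WT, or the empty pMY-Bio vector, with 4 libraries per group, and both RBPJ forms were Flag-tagged mouse proteins. The labels do not say whether replicates were separate cultures, so the p-values cover only spread among these libraries, and that spread may be technical. F261A/A284V is named for its substitutions in RBPJ.

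Chemokine receptors are membrane receptors coupled to G proteins. Each reads a gradient of its chemokine ligands and steers the cell through G protein signalling, PI3 kinase and Rac, and the set that a T cell displays decides which organs it can enter. CCR7 admits T cells to lymph nodes, and S1PR1 lets them leave again. CXCR4 holds cells near sources of CXCL12, such as bone marrow. CCR9 directs cells to thymus and small intestine, CCR4 and CCR8 are found on skin-homing, type 2 helper and regulatory T cells, and CXCR3, CXCR6 and CCR2 mark effector and memory cells bound for inflamed tissue. RBPJ is the DNA-binding protein of the Notch pathway, and L3MBTL3 is a chromatin protein that binds RBPJ and acts with it in repression.

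Values are gene counts divided by the authors' size factor for each library, called normalized counts below. The reads behind them summed to 4882485 to 6129134 per library in the hairpin experiment, to 5923799 to 7921533 in replicates 1 and 2 of the rescue, and to 3553505 to 4239479 in replicates 3 and 4. A count of 3 reads, the least taken as detection, equals 2.81 to 3.69 normalized counts in the hairpin table and 1.90 to 4.62 in the rescue table. L3mbtl3 was at 394, 371 and 370 in the libraries labelled L3MBTL3 shRNA, against 467, 447 and 352 in scramble libraries, so scramble replicate 3 lay below all libraries labelled L3MBTL3 shRNA and the target does not bear out the labels (log2 fold change -0.15, SE 0.11, limma adjusted p = 0.402). Rbpj was at 685 to 922 with F261A/A284V, at 627 to 818 with RBPJ WT and at 255 to 317 with empty vector, with no overlap between either RBPJ form and empty vector. In the rescue, replicates 1 and 2 (the first set) stood apart from replicates 3 and 4 (the second set) in every group, and the labels do not say what sets them apart. For F261A/A284V replicates 3 and 4, RBPJ WT replicates 1 and 2 and empty vector replicates 1 and 2, the recovered reads of a pair differed by no more than counting noise gives (chi-square over degrees of freedom 0.823, 0.721 and 0.859). Each of these pairs was therefore also counted as 1 sample. T cell genes such as Cd3e were high (420 to 764 in all libraries), although Cd5 was below 5 in every group but RBPJ WT, and B cell and natural killer cell lists each summed to at most 4.62 in any library.

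All changes were tested with limma on log2(value + 1), with p-values adjusted by the Benjamini-Hochberg method over all 11586 genes tested in the hairpin table and all 11691 in the rescue table. A gene was called at an adjusted p under 0.05. Of the 9 receptor genes, 7 passed the filter on low values in each table, while Cxcr3 and S1pr1 did not. For the rescue, the fit with group as the only term is given beside a set-adjusted fit, which counts near-identical libraries once and has the set of replicates as a term.

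Per kilobase of the longest coding transcript, Ccr8 and Cxcr4 led in both hairpin groups. In the libraries labelled L3MBTL3 shRNA the order was Ccr8 at 408 ± 25.9 normalized counts per kilobase, Cxcr4 at 304 ± 18.5, Cxcr6 at 239 ± 23.1, Ccr4 at 196 ± 17.5, Ccr2 at 45.6 ± 5.53, Ccr9 at 11.8 ± 6.90 and Ccr7 at 3.26 ± 0.305 (SD, n = 3). In scramble libraries Cxcr4 stood at 367 ± 32.6 normalized counts per kilobase, Ccr8 at 301 ± 60.8, Ccr4 at 177 ± 30.8, Cxcr6 at 147 ± 47.7, Ccr2 at 57.9 ± 7.09, Ccr7 at 17.9 ± 7.28 and Ccr9 at 8.60 ± 4.09 (SD, n = 3). Within 1 SD, the neighbours Cxcr4 and Ccr8, Ccr4 and Cxcr6, and Ccr7 and Ccr9 were not apart in scramble libraries, whereas no neighbours among these 7 genes overlapped within 1 SD in the libraries labelled L3MBTL3 shRNA. Cxcr3 and S1pr1 came last in both groups, below 3 normalized counts per kilobase. In the rescue, Cxcr4 and Ccr8 also led in each group, followed by Ccr4 and Cxcr6.

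RBPJ WT was set against empty vector to ask which genes respond to returning RBPJ to depleted cells. Ccr2, Cxcr6, Ccr4 and Ccr8 were higher with RBPJ WT in the set-adjusted fit, Ccr2 by the widest margin at 5.70-fold. Ccr9, Ccr7 and Cxcr4 did not pass. With group as the only term none of the 7 tested receptor genes was called (limma; 3 at an unadjusted p under 0.05; 0 by edgeR and 0 by DESeq2), where 0.248% of all genes tested were called. The set-adjusted fit called 4, all higher, against 1.52% of all genes called and 0.667% called higher. The same number was called with the replicate number as a block (2.23% of all genes called, 0.992% higher) and with the set as a term but every library counted (2.42% called, 1.1% higher). The median log2 fold change in the set-adjusted fit was 0.56 over the 7 genes and -0.01 over all genes tested.

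**Figure D1:**
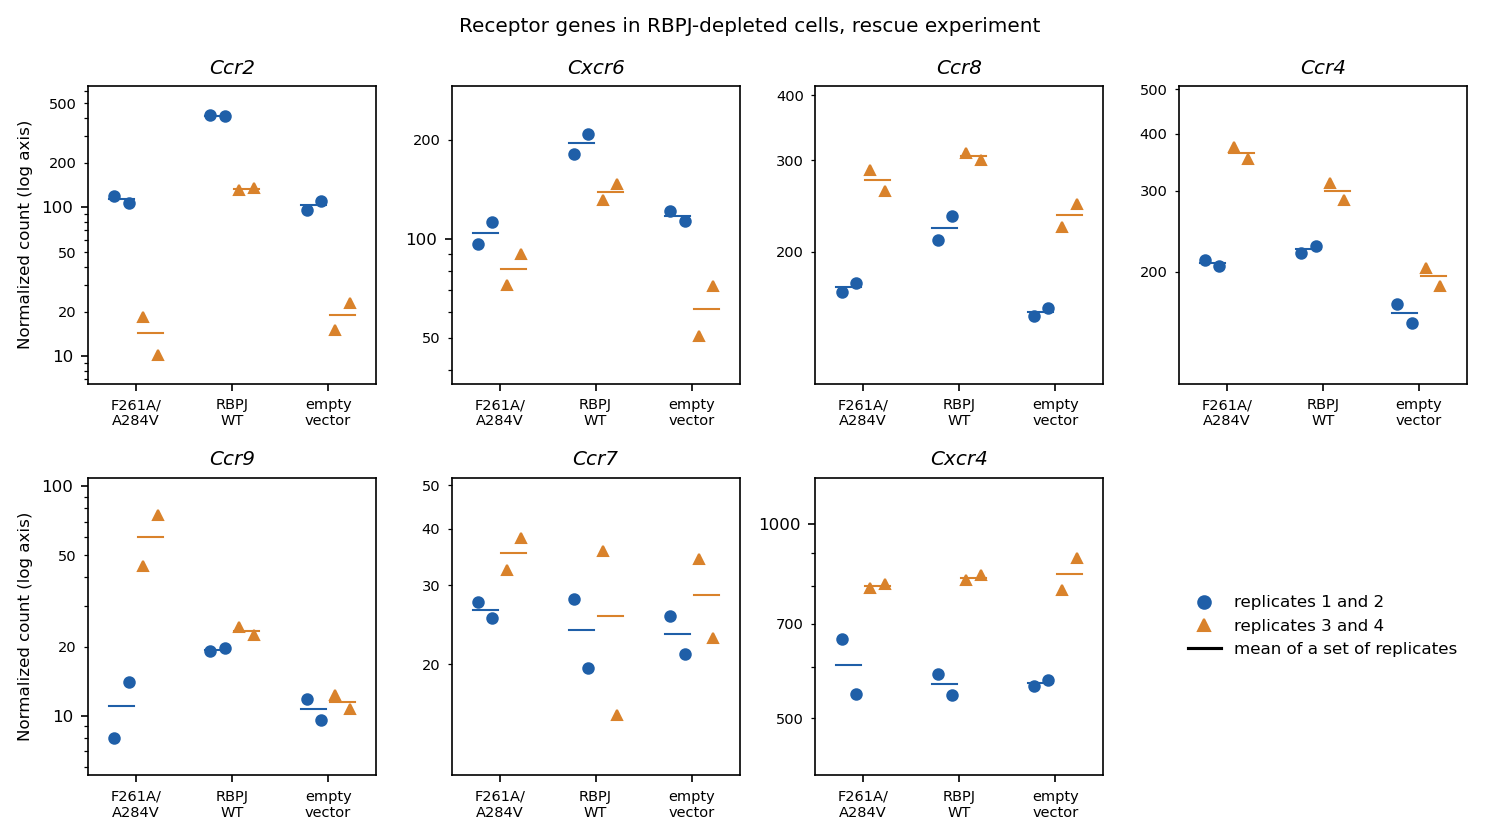
Normalized counts (log axis) of the 7 tested receptor genes in the rescue experiment, 1 point per library, with circles for replicates 1 and 2, triangles for replicates 3 and 4 and a line at the mean of each set. Ccr2 with RBPJ WT lies at 407 and above in replicates 1 and 2 and at 131 and above in replicates 3 and 4, and Ccr9 reaches 44.7 and 75.0 only in F261A/A284V replicates 3 and 4.

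Ccr2, the receptor for CCL2, had 417, 407, 131 and 135 normalized counts in RBPJ WT replicates 1 to 4. Empty vector libraries had 95.7, 111, 15.1 and 22.9. Every RBPJ WT library was above every empty vector library, and each group was lower in replicates 3 and 4 than in replicates 1 and 2. The ratio of the means was 4.00 in replicates 1 and 2 and 7.01 in replicates 3 and 4. In replicates 3 and 4 the empty vector values rest on 11 and 15 reads, and those of RBPJ WT on 103 and 96. The set-adjusted log2 fold change was 2.51 (SE 0.20, limma adjusted p = 6.7e-08), where the fit without the set gave 2.38 (SE 0.87, adjusted p = 1.00). In these bulk libraries, more cells that transcribe a gene and more RNA per cell cannot be told apart.

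Cxcr6, the receptor for the membrane-bound chemokine CXCL16, had 181, 208, 131 and 146 normalized counts with RBPJ WT. With empty vector it had 121, 113, 50.7 and 71.8. The groups did not overlap, and the set-adjusted log2 fold change was 1.03 (SE 0.15, limma adjusted p = 0.00024). Within replicates 1 and 2 the log2 fold change was 0.72, and within replicates 3 and 4 it was 1.19. Ccr4, a receptor for CCL17 and CCL22, had 220, 227, 312 and 287 with RBPJ WT, against 170, 155, 204 and 186 with empty vector. Again no library of one group reached the other, and the set-adjusted log2 fold change was 0.56 (SE 0.10, limma adjusted p = 0.0018).

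Ccr8, a receptor for CCL1 and in mouse also for CCL8, had 210, 234, 310 and 301 normalized counts with RBPJ WT. Empty vector libraries had 150, 156, 223 and 248. These ranges overlapped across the sets but not within either of them. The set-adjusted log2 fold change was 0.43 (SE 0.08, limma adjusted p = 0.0048), with 0.53 in replicates 1 and 2. In replicates 3 and 4 it was 0.38 and did not pass on its own (limma adjusted p = 0.066). Ccr9 had 19.1, 19.6, 24.2 and 22.5 with RBPJ WT, against 11.8, 9.55, 12.3 and 10.7 with empty vector. All 4 RBPJ WT libraries were higher, but the set-adjusted log2 fold change of 0.91 (SE 0.38, limma adjusted p = 0.36) was not called.

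Cxcr4, the receptor for CXCL12, had 584, 544, 818 and 832 normalized counts with RBPJ WT, against 561, 574, 789 and 885 with empty vector. Its set-adjusted log2 fold change was -0.01, with a 95% confidence interval from -0.16 to 0.13. Ccr7 had 28.0, 19.6, 35.7 and 15.5 with RBPJ WT, against 25.6, 21.1, 34.2 and 22.9 with empty vector, and its interval ran from -0.71 to 0.40 around -0.15. The ranges of both genes overlapped, and the interval of Ccr7 is wide enough to hold a change of the size seen for Ccr4 in the other direction. In all, 4 of the 7 tested genes (Ccr2, Ccr4, Ccr9 and Cxcr6) had no overlap between the groups, all higher with RBPJ WT, where 3.34% of all genes tested had none and 1.46% were higher.

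The F261A/A284V form was set against RBPJ WT to ask which of these levels depend on the substituted residues. Ccr2 and Cxcr6 were lower with F261A/A284V, close to the empty vector level, while Ccr4 was not. Ccr8 lay lower by a smaller margin and was called only in fits that count every library. The set-adjusted fit called 2 of the 7, both lower, where 1.96% of all genes were called and 0.881% were called lower. With group as the only term none was called (limma; 2 at an unadjusted p under 0.05; 0 by edgeR and 0 by DESeq2; 0.316% of all genes called), and with the replicate number as a block 3 were, Ccr8 included, all lower, where 4.74% of all genes were called and 2.23% were called lower. With the set as a term and every library counted, 3 were called lower as well (5.12% of all genes called, 2.51% lower). The median log2 fold change in the set-adjusted fit was 0.03 over the 7 genes and 0.02 over all genes tested.

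**Figure D2:**
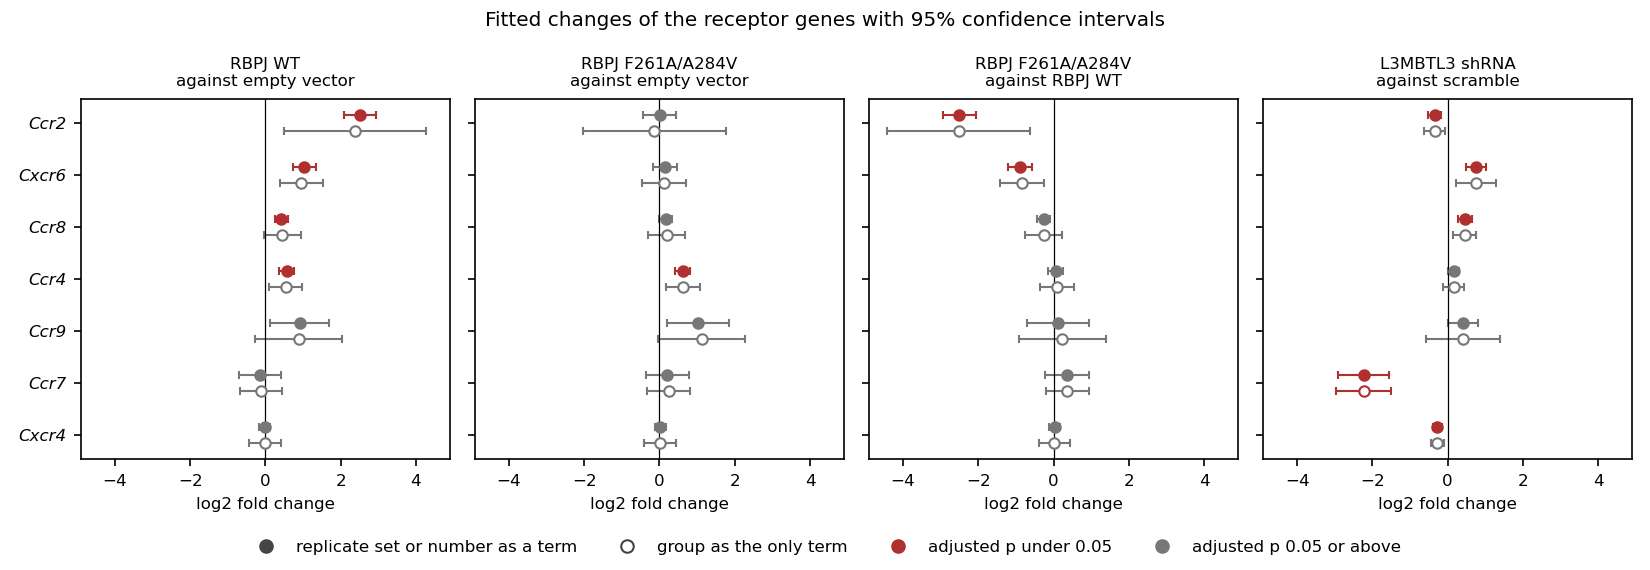
Log2 fold changes of the 7 tested receptor genes in the 4 comparisons, with 95% confidence intervals from limma. Filled points have the set of replicates (rescue) or the replicate number (hairpin) as a term, open points have group alone, and red marks an adjusted p under 0.05: Ccr2 stands at 2.51 for RBPJ WT against empty vector and at -2.51 for F261A/A284V against RBPJ WT.

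Ccr2 had 118, 108, 18.5 and 10.3 normalized counts in F261A/A284V replicates 1 to 4, against 417, 407, 131 and 135 in RBPJ WT replicates 1 to 4. No F261A/A284V library reached the lowest RBPJ WT library. The set-adjusted log2 fold change was -2.51 (SE 0.21, limma adjusted p = 1.3e-07). Cxcr6 had 96.1, 112, 72.4 and 89.7 with F261A/A284V, against 181, 208, 131 and 146 with RBPJ WT, a set-adjusted log2 fold change of -0.89 (SE 0.15, limma adjusted p = 0.0015). Its groups did not overlap either, and the change was -0.90 in replicates 1 and 2 and -0.77 in replicates 3 and 4. Ccr8 had 167, 174, 288 and 262 with F261A/A284V, against 210, 234, 310 and 301 with RBPJ WT. It was lower within both sets, with a log2 fold change of -0.26 that passed with the replicate number as a block (limma adjusted p = 0.032) but not in the set-adjusted fit (SE 0.08, limma adjusted p = 0.17).

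Ccr4 had 212, 206, 374 and 353 normalized counts with F261A/A284V, against 220, 227, 312 and 287 with RBPJ WT. The set-adjusted log2 fold change was 0.05, with an interval from -0.16 to 0.26. It averages over sets that went opposite ways, each without overlap. The ratio of the means was 0.93 in replicates 1 and 2 and 1.21 in replicates 3 and 4. The difference between the sets was not called (0.38, SE 0.12, limma adjusted p = 0.17). Cxcr4 had 663, 545, 795 and 806 with F261A/A284V, an interval from -0.12 to 0.18 around 0.03 against RBPJ WT, and Ccr7 had 27.6, 25.4, 32.3 and 38.2, an interval from -0.22 to 0.94 around 0.36. Neither gene was separated between the groups. Of the 7 tested genes, Ccr2 and Cxcr6 did not overlap, both lower with F261A/A284V, where 3.7% of all genes tested had no overlap and 1.75% were lower.

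F261A/A284V was also set against empty vector, with the same libraries as in the comparisons above, so the 3 comparisons are not independent of each other. Ccr4 was higher with F261A/A284V, at 212, 206, 374 and 353 normalized counts, against 170, 155, 204 and 186 with empty vector, with no overlap. It was the only receptor gene called in the set-adjusted fit (log2 fold change 0.62, SE 0.10, limma adjusted p = 0.010), where 0.0941% of all genes were called and 0.0513% were called higher. This call was lost without the merged F261A/A284V replicates 3 and 4, without empty vector replicate 3 and without empty vector replicate 4. The same number, 1, was called with the replicate number as a block (0.65% of all genes, 0.402% higher) and with the set as a term and every library counted (0.693%, 0.393% higher). The median log2 fold change in the set-adjusted fit was 0.17 over the 7 genes and 0.01 over all genes tested. None was called with group alone (limma; 1 at an unadjusted p under 0.05; 0 by edgeR and 0 by DESeq2; 0.0171% of all genes called). Ccr2 had an interval from -0.43 to 0.44 around a log2 fold change of 0.00, and Cxcr6 one from -0.18 to 0.46 around 0.14. No overlap was found for Ccr4 alone of the 7 tested genes, against 1.92% of all genes tested and 0.881% with higher values.

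Ccr9 differed between the sets with F261A/A284V. It had 8.01 and 14.0 normalized counts in F261A/A284V replicates 1 and 2, against 11.8 and 9.55 with empty vector, and 44.7 and 75.0 in F261A/A284V replicates 3 and 4, against 12.3 and 10.7 with empty vector. The raised level was thus seen in replicates 3 and 4 alone, a pair that differed by no more than counting noise and may be 1 sample. Within these replicates the log2 fold change was 2.24 (SE 0.33, limma adjusted p = 0.00067), and within replicates 1 and 2 it was -0.00 (SE 0.30). Against RBPJ WT, Ccr9 was lower in replicates 1 and 2 (log2 fold change -0.81, limma adjusted p = 0.30) and higher in replicates 3 and 4 (1.28, limma adjusted p = 0.021). The difference between the sets was 2.09 (SE 0.46, limma adjusted p = 0.042), and it was not called with near-identical libraries counted once (2.13, SE 0.65, limma adjusted p = 0.695).

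**Figure D3:**
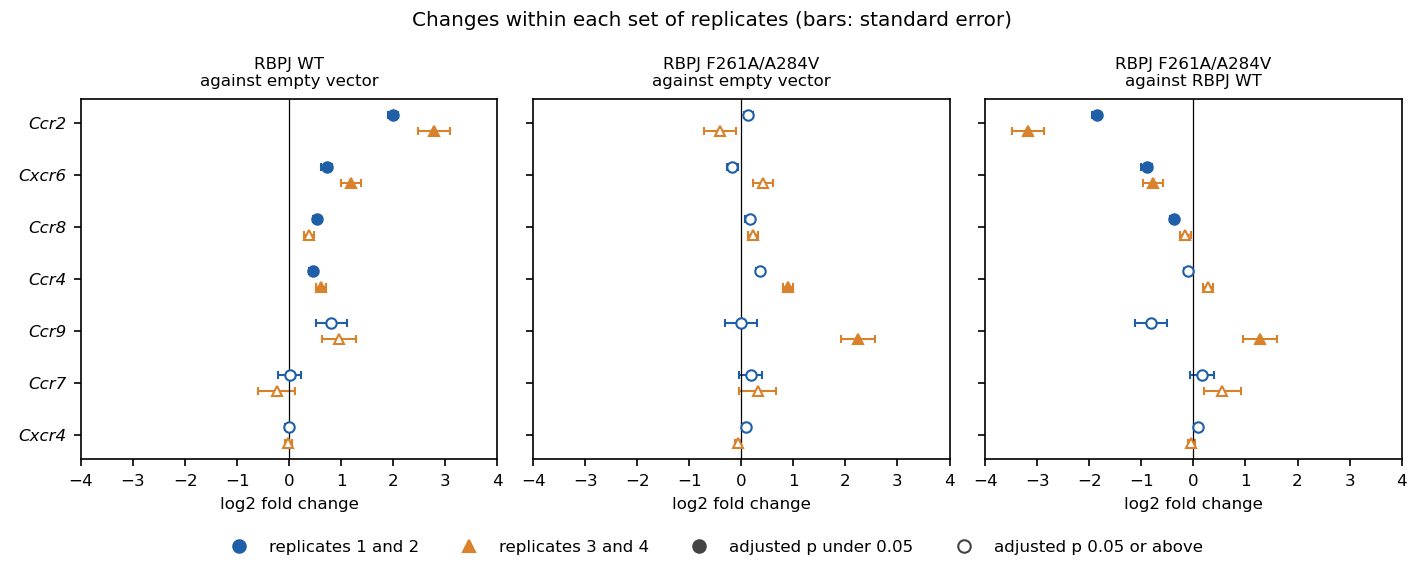
Log2 fold changes of the 7 tested receptor genes within replicates 1 and 2 (circles) and within replicates 3 and 4 (triangles), with standard errors, and filled points where the limma adjusted p was under 0.05. Ccr2 moves the same way in both sets in the comparisons with RBPJ WT, and Ccr9 with F261A/A284V against RBPJ WT lies at -0.81 in replicates 1 and 2 and at 1.28 in replicates 3 and 4.

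Ccr2 also changed by a different amount in the sets. With F261A/A284V against RBPJ WT its log2 fold change was -1.86 in replicates 1 and 2 and -3.18 in replicates 3 and 4, a difference of -1.32 (SE 0.30, limma adjusted p = 0.049). With near-identical libraries counted once the difference was -1.26 (SE 0.35, limma adjusted p = 0.48). F261A/A284V replicates 3 and 4 hold only 12 and 7 reads of Ccr2. Once near-identical libraries are counted once, RBPJ WT and empty vector each hold 1 sample in replicates 1 and 2, and F261A/A284V holds 1 in replicates 3 and 4, so values within a set rest on few samples.

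Cxcr3, the receptor for CXCL9 and CXCL10, and S1pr1 were at the edge of detection. Cxcr3 had 8.01, 8.24, 13.9 and 8.82 normalized counts with F261A/A284V, against 5.46, 3.17, 2.55 and 1.41 with RBPJ WT and 4.59, 8.19, 2.74 and 1.53 with empty vector. These values rest on 37, 16 and 22 reads summed over the 4 libraries of each group. The F261A/A284V libraries all lay above the RBPJ WT libraries, but with no filter on low values the log2 fold change of 1.43 was not called (limma adjusted p = 0.63). Of the genes that passed the filter, which Cxcr3 did not, 3.7% had no overlap in this comparison, in either direction. S1pr1 had 0 to 8 reads per library in every rescue group and 0 to 2 per library in the hairpin experiment, so a difference was not detectable at this depth.

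The promoters of Ccr2 and Cxcr6 are printed because these are the genes called in the set-adjusted fit both for RBPJ WT against empty vector and for F261A/A284V against RBPJ WT. The sequences are the 250 bases before the start of each gene, from RefSeq on GRCm38.p6, at chr9:124101933-124102182 (plus strand) for Ccr2 and chr9:123806227-123806476 (plus strand) for Cxcr6.
Ccr2: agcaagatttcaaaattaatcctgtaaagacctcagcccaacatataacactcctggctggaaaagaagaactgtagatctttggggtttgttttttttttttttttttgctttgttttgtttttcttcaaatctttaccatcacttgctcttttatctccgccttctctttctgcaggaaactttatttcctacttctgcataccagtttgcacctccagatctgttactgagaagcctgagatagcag
Cxcr6: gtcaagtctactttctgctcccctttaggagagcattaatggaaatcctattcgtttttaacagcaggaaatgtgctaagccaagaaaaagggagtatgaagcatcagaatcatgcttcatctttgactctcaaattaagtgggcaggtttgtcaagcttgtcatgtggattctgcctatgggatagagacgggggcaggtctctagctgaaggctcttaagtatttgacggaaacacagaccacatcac
The core of the RBPJ binding motif, TGGGAA, was searched on both strands (TTCCCA on the other) in windows from 250 bases before to 50 after the start. Windows were found for 7 of the 9 genes, all but Ccr7 and S1pr1. The core was found in 1 of the 7, Cxcr3, and in 25.6% of 32851 windows of all genes, and the longer GTGGGAA stood in 6.38% of them. The Cxcr3 match is on chrX:101734125-101734154 (minus strand), just after the start, with the core on the other strand in capitals.
Cxcr3: gttcactgcaagTTCCCAaccacaagtgcc
A match is a description of the letters, and its absence from these windows says nothing of binding elsewhere.

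In the gene order of GRCm38.p6, 3 of the 9 genes (Ccr9, Cxcr6 and Ccr2) lie in a stretch of chromosome 9 with other receptor genes, in the order Ccr9, Fyco1, Cxcr6, Xcr1, Ccr1, Ccr1l1, Ccr3 and Ccr2, with Ccr8 and Ccr4 elsewhere on that chromosome. Between Cxcr6 and Ccr2, Xcr1, Ccr1, Ccr1l1 and Ccr3 were too low to be tested. Fyco1, which lies between Ccr9 and Cxcr6 and acts in vesicle transport, had a set-adjusted log2 fold change of 0.12 with RBPJ WT against empty vector (limma adjusted p = 0.46). Lztfl1, on the other side of Ccr9, had one of 0.36 (limma adjusted p = 0.0090) and was thus called.

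The hairpin against L3MBTL3 was set against scramble to ask which genes respond to the loss of this RBPJ partner, with the reservation on the labels given above. Ccr7, the lymph node homing receptor, was lower in the libraries labelled L3MBTL3 shRNA and was the only receptor gene called with group as the only term. With the replicate number as a block, Cxcr6 and Ccr8 were higher, and Ccr7, Ccr2 and Cxcr4 were lower. Ccr4 and Ccr9 did not pass in either fit. The block takes libraries as paired by number, which was not clear for replicates 1 and 2. Of the 7 tested genes, 1 was thus called with group alone, where 3.32% of all genes tested were called and 1.11% were called lower. With the block, 5 of the 7 were called, 2 higher and 3 lower, where 22.2% of all genes were called, 13.5% higher and 8.71% lower. The median log2 fold change was 0.16 over the 7 genes and -0.01 over all genes tested.

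**Figure D4:**
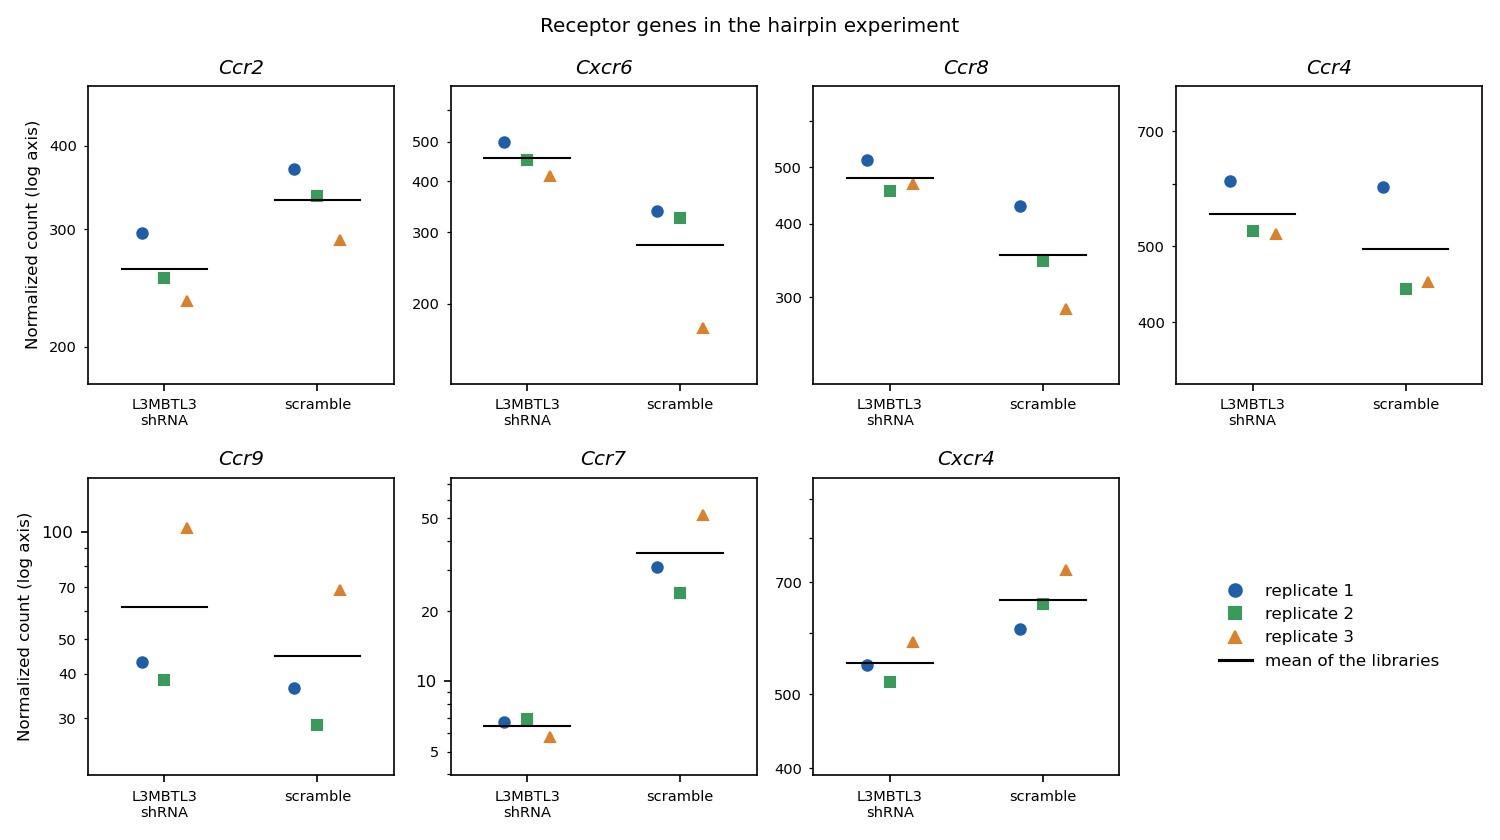
Normalized counts (log axis) of the 7 tested receptor genes in the hairpin experiment, 1 point per library, with the replicate number as shape and colour and a line at the mean of each group. Ccr7 lies between 5.76 and 6.87 in the libraries labelled L3MBTL3 shRNA and at 24.0 and above in scramble libraries, while Ccr4 and Ccr9 overlap.

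Ccr7 had 6.73, 6.87 and 5.76 normalized counts in the libraries labelled L3MBTL3 shRNA, against 30.9, 24.0 and 51.6 in scramble libraries. These are 7, 7 and 6 reads against 33, 25 and 42 reads. The log2 fold change was -2.22 (SE 0.32, limma adjusted p = 0.031). Ccr7 passed the filter on low values through its scramble libraries alone, and with no filter the call held (limma adjusted p = 0.030). The call was lost without shRNA replicate 1, 2 or 3 (limma adjusted p = 0.205, 0.14 and 0.101), with log2 fold changes of -2.25, -2.26 and -2.15, and leaving out any scramble library took Ccr7 below the filter. Over all genes tested, the fits without shRNA replicate 1 or 2 called 0. The fit without shRNA replicate 3 called 2 higher and 3 lower of 11493.

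Cxcr6 had 501, 452 and 413 normalized counts in the libraries labelled L3MBTL3 shRNA, against 338, 326 and 175 in scramble libraries. The groups did not overlap, and scramble replicate 3 was the lowest library. The log2 fold change was 0.76 (SE 0.23, limma adjusted p = 0.094), with an adjusted p of 0.0014 with the block. Without scramble replicate 3 it was 0.45 (limma adjusted p = 0.020). Ccr8 had 513, 455 and 468, against 429, 346 and 286 in scramble libraries, a log2 fold change of 0.45 (SE 0.13, limma adjusted p = 0.090, and 0.0031 with the block). Each library labelled L3MBTL3 shRNA was above all scramble libraries, and without scramble replicate 1 Ccr8 was called with group alone (0.60, limma adjusted p = 0.042).

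Cxcr4 had 546, 518 and 585 normalized counts in the libraries labelled L3MBTL3 shRNA, against 608, 656 and 725 in scramble libraries, without overlap (log2 fold change -0.27, limma adjusted p = 0.087, and 0.0089 with the block). Ccr2 had 296, 253 and 234, against 370, 336 and 289 in scramble libraries. The ranges of Ccr2 overlapped, yet it was lower within every replicate number (log2 fold change -0.34, SE 0.12, limma adjusted p = 0.13, and 0.0094 with the block). In all, 4 of the 7 tested genes had no overlap, 2 higher and 2 lower, where 35.2% of all genes tested had none. That share was 18.1% for higher and 17.1% for lower values.

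Ccr4 averaged 549 ± 49.0 in the libraries labelled L3MBTL3 shRNA and 496 ± 86.3 in scramble libraries, and Ccr9 averaged 61.4 ± 35.9 and 44.7 ± 21.3 (SD, n = 3 each). Both overlapped between the groups, and Ccr9 was highest in replicate 3 of both, at 103 and 68.8. Cxcr3 had 2.88, 3.93 and 5.76 in the libraries labelled L3MBTL3 shRNA, against 0.936, 3.83 and 0 in scramble libraries, which is 13 reads against 5 in all.

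Markers of other cells also differed between groups, in some cases in the direction of these genes and in others against it. Myeloid cells express Ccr2, and the 8 myeloid genes summed to 255 to 324 in the libraries labelled L3MBTL3 shRNA and to 378 to 411 in scramble libraries. In the rescue they summed to 276 to 310 with F261A/A284V, to 236 to 265 with RBPJ WT and to 287 to 313 with empty vector, so the group with the lowest sums was the one with the highest Ccr2 within each set. Csf1r, Cd14, Adgre1 and Mpo were below 5 in every library, with Cd14 at 0 in the hairpin experiment, and the sums came mainly from Cd68, Fcgr3 and, in the rescue, Itgam. Itgam was lower with RBPJ WT than with empty vector (set-adjusted log2 fold change -1.69, SE 0.25, limma adjusted p = 0.00041) and higher with F261A/A284V than with RBPJ WT (1.05, SE 0.26, limma adjusted p = 0.037). Against RBPJ WT, F261A/A284V gave 0.48 for Cd68 (SE 0.13, limma adjusted p = 0.051). For Fcgr3 it went the other way, at -0.32 (SE 0.15, limma adjusted p = 0.44). With RBPJ WT against empty vector, Cd68 was at -0.18 and Fcgr3 at -0.07, neither called. Between the hairpin groups, Cd68 (log2 fold change -0.38, limma adjusted p = 0.084) and Fcgr3 (-0.84, limma adjusted p = 0.103) were called lower with the block alone (limma adjusted p = 0.0078 and 0.040). Of the 7 genes of stroma, endothelium and epithelium only Pecam1, which T cells can also express, was tested. Col1a1, Col1a2, Col3a1, Pdgfrb, Cdh5 and Epcam were below 5 in every library. Pecam1 had 437 to 563 normalized counts with F261A/A284V, 606 to 645 with RBPJ WT and 552 to 587 with empty vector, and it was lower with F261A/A284V than with RBPJ WT (set-adjusted log2 fold change -0.28, SE 0.059, limma adjusted p = 0.013), the direction of Ccr2 and Cxcr6. In the libraries labelled L3MBTL3 shRNA it had 283.6 to 393, against 246 to 393 in scramble libraries. Of the T cell list, 13 of 14 genes were tested, and it summed to 11973 to 12790 in the libraries labelled L3MBTL3 shRNA and 11439 to 11645 in scramble libraries. In the rescue it summed to 9277 to 12661 with F261A/A284V, 9222 to 12707 with RBPJ WT and 9296 to 12737 with empty vector. Its member Cd28, a costimulatory receptor, was lower with RBPJ WT than with empty vector (set-adjusted log2 fold change -0.81, SE 0.085, limma adjusted p = 4.1e-06) and higher with F261A/A284V than with RBPJ WT (0.51, SE 0.088, limma adjusted p = 0.0016). The part of these marker shifts in the results was not tested.

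Among the other genes of chemokine signalling and homing, few were called. Of 16 other chemokine receptor genes 3 were tested in each table, and none was called by limma with group alone or in the set-adjusted fit, or by edgeR or DESeq2. At an unadjusted p under 0.05 with group alone, 0 passed between the hairpin groups, 0 for F261A/A284V against empty vector and 1 in each of the other rescue comparisons. Ccr6, chosen after its values were seen, had 271, 211 and 81.6 normalized counts in the libraries labelled L3MBTL3 shRNA, against 95.4, 82.4 and 6.1 in scramble libraries. It was higher with the block (log2 fold change 2.12, SE 0.32, limma adjusted p = 0.0011) but not with group alone (limma adjusted p = 0.197). Ccrl2, also named after its values were seen, was higher with F261A/A284V than with RBPJ WT with the block (0.59, SE 0.16, limma adjusted p = 0.039). The block called 293 of 11691 genes higher in that comparison. In the set-adjusted fit Ccrl2 did not pass (0.54, SE 0.19, limma adjusted p = 0.24). Of 41 chemokine ligand genes, 3 were tested and none was called with group alone (limma; 2 at an unadjusted p under 0.05 between the hairpin groups and 0 in the rescue; 0 by edgeR and 0 by DESeq2). With the block, 2 of the 3 were lower in the libraries labelled L3MBTL3 shRNA, where 8.71% of all genes tested were called lower.

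Of 11 genes for sphingosine-1-phosphate signalling, 7 were tested in the hairpin table. Cd69, whose protein pulls S1PR1 from the cell surface, was lower in the libraries labelled L3MBTL3 shRNA, at 408, 445 and 521 normalized counts, against 580, 613 and 634 in scramble libraries (log2 fold change -0.42, SE 0.091, limma adjusted p = 0.0497). With group alone, 129 of 11586 genes tested were called lower. No gene, Cd69 included, was called without shRNA replicate 1 or 2, or without scramble replicate 2. None of the 8 tested in the rescue was called in any of the 3 comparisons (limma with group alone or set-adjusted; 1 at an unadjusted p under 0.05 for RBPJ WT against empty vector with group alone; 0 by edgeR and 0 by DESeq2). Of 9 tested genes for adhesion in homing, none was called between the hairpin groups with group alone (limma; 1 at an unadjusted p under 0.05; 0 by edgeR and 0 by DESeq2).

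Of 17 genes for signalling below the receptors, all tested, Tiam1, an activator of Rac, was called in the rescue. It had 1227 to 1335 normalized counts with F261A/A284V, 1480.1 to 1630.4 with RBPJ WT and 1183 to 1301 with empty vector. It was higher with RBPJ WT than with empty vector (set-adjusted log2 fold change 0.32, SE 0.058, limma adjusted p = 0.0029) and lower with F261A/A284V than with RBPJ WT (-0.25, SE 0.060, limma adjusted p = 0.031). Of 12 tested genes for receptor desensitisation, Rgs2, which shortens G protein signals, was higher with F261A/A284V than with RBPJ WT (0.31, SE 0.076, limma adjusted p = 0.033). Between the hairpin groups, limma called none of the signalling or desensitisation genes with group alone, with 3 of each list at an unadjusted p under 0.05. For signalling genes edgeR called 0 and DESeq2 called 1 (higher), and for desensitisation genes both called 0. DESeq2 called 456 of all 11586 genes higher. With the block, 3 signalling and 2 desensitisation genes were higher and 1 desensitisation gene was lower, of 17 and 12 tested, where 13.5% of all genes were called higher and 8.71% lower.

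Of 14 tested genes for transcription factors that act on homing receptors, 3 were higher in the libraries labelled L3MBTL3 shRNA and none was lower with group alone. Tbx21, which encodes T-bet and drives Cxcr3 in type 1 helper cells, had 110.5, 115 and 124 normalized counts there, against 75.8, 82.4 and 72.5 in scramble libraries (log2 fold change 0.59, SE 0.13, limma adjusted p = 0.049). Runx1 had a log2 fold change of 0.32 (SE 0.054, limma adjusted p = 0.035), and Foxp1, which keeps T cells quiescent, one of 0.24 (SE 0.051, limma adjusted p = 0.049). Over all 11586 genes tested, 256 were called higher and 129 lower with group alone. No gene, these 3 included, was called without shRNA replicate 1 or 2, or without scramble replicate 2. With the block, 7 of the 14 were higher and 2 lower, beside 13.5% and 8.71% of all genes. One of these 2 was Klf2, an activator of S1pr1, which had 76.9, 73.6 and 127.7 normalized counts in the libraries labelled L3MBTL3 shRNA, against 90.8, 113 and 171 in scramble libraries (limma adjusted p = 0.046), named here after its values were seen. In the rescue, none of the 14 was called in the set-adjusted fit (limma; 6 at an unadjusted p under 0.05 for RBPJ WT against empty vector, 1 for F261A/A284V against empty vector and 3 for F261A/A284V against RBPJ WT), nor by edgeR or DESeq2 with group alone.

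The receptor genes varied together in part. Over the 18 libraries, each taken as its difference from the mean of its table or set, Ccr8 and Cxcr6 had the highest correlation among the 7 genes (Pearson r = 0.87). Ccr2 and Cxcr6 had r = 0.66, and Ccr7 and Ccr8 r = -0.62. The genes most like Ccr2, among 9761 others with a mean of at least 50 normalized counts in both tables, were Aqp9 (r = 0.92), Adam12 (0.91) and Ctla2a (0.89). Those most like Cxcr6 were Rbm47 (0.93), Tiam1 (0.92) and Cnst (0.91), those most like Ccr4 were Ccdc80 (0.87), Rbpj itself (0.83) and Acot11 (0.79), and those most like Ccr8 were Arsg (0.91), Sytl2 (0.91) and Cul7 (0.90). Ccr7 was most like Ppfia1 (0.95), Cars (0.91) and Cldnd1 (0.91), Ccr9 most like Gtf2ird1 (0.91), Tmem57 (0.86) and Fam102a (0.85), and Cxcr4 most like Dcaf7 (0.94), Farsb (0.94) and Rnf19b (0.94). These values describe libraries that share groups, size factors and near-identical copies, and no test was made of them.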

How the data were processed

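RNA of 18 libraries was measured in 2 experiments. The submitters' processing notes name the aligner TopHat2 (2.1.1), the package DESeq2 (1.24.0) and, as build, mm9. The sources used here do not give how reads were counted or whether by strand, so overlapping and antisense genes may share reads. The authors deposited, for each experiment, a signal per gene that behaves as a gene count divided by 1 size factor per library: for 100% of values the recovered number of reads was whole, to within 0.1. The tables were normalized separately, and tests were run within each.

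Genes with a value of at least 10 in at least 3 (hairpin) or 4 (rescue) libraries were tested with limma 3.58.1 (limma-trend) in R 4.3.3 on log2(value + 1), 2-sided. Fold changes on this scale understate changes of low genes. edgeR 4.0.16 and DESeq2 1.42.0 on the recovered reads, a block for the replicate number, the set of replicates, other pseudocounts, filters and scalings, and libraries left out were tried as alternatives. The scripts were tested on simulated data. Same-numbered libraries of different groups deviated from their group means together in the hairpin experiment (correlations over genes 0.24 to 0.539). Different-numbered hairpin pairs ran from -0.469 to 0.332, so the ranges overlapped. The correlation of shRNA replicate 1 with scramble replicate 2 (0.332) was above that of replicate 2 of both groups (0.24). Replicate 3 thus stood apart, but pairing within replicates 1 and 2 was not shown. In the rescue, same-numbered libraries also deviated together (0.55 to 0.815), and libraries of the same set did so to the same degree (0.55 to 0.832). The numbers were taken as pairing the libraries, in the rescue not apart from the sets. Gene lengths came from GENCODE vM21, and promoters and gene order from RefSeq (GRCm38.p6), and no coordinates were converted between builds. The receptor genes and the lists of other genes were chosen with earlier results of these data known. All 9 receptor genes are named, other list genes where called with group alone or in the set-adjusted fit, and for likeness the 3 genes with the highest correlation. Some results on other genes are not reported here.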

Additional observations from a re-analysis of the deposited data

Results flagged for a closer look

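Cxcr3 in F261A/A284V replicate 3, at 13.9 normalized counts, stood above the other libraries of its group, which had 8.01 to 8.82. That library holds 9 reads of Cxcr3, and F261A/A284V replicates 1, 2 and 4 hold 9, 13 and 6. Chance can give such a mark in a group of 4 libraries with so few reads, at a rate that was not computed. The change of Ccr2 with F261A/A284V against RBPJ WT differed between the sets of replicates, by -1.32 on the log2 scale for replicates 3 and 4 minus replicates 1 and 2. The change of Ccr9 in the same comparison differed by 2.09, with opposite directions in the sets. Neither difference passed with near-identical libraries counted once (limma adjusted p = 0.482 and 0.695).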

How the results depend on the processing

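Between the hairpin groups, 1 receptor gene was called with group alone, against 2 with DESeq2, 5 with the replicate block, 4 without replicate 3 of both groups, and 0 to 2 when 1 library was left out. Of all genes tested, DESeq2 called 456 of 11586 higher and 199 lower. Without replicate 3 of both groups, 1049 of 11417 were called higher and 856 lower. With 1 library left out, calls over all genes ran from 0 (without shRNA replicate 1) to 647 higher and 385 lower (without scramble replicate 3). In the rescue, 0 were called in each comparison with group alone, with edgeR, with DESeq2 and with any 1 library left out. For RBPJ WT against empty vector, 4 were called with the set as a term, with near-identical libraries also counted once, with the replicate block and within replicates 1 and 2, and 3 within replicates 3 and 4. For F261A/A284V against RBPJ WT the counts were 3 with the set as a term, 2 with near-identical libraries also counted once, 3 with the replicate block and 3 within each set. For F261A/A284V against empty vector they were 1, 1 and 1, with 2 within replicates 3 and 4. Of all 11691 genes, 46 were called higher and 71 lower within replicates 1 and 2 for RBPJ WT against empty vector. Within replicates 3 and 4 these were 67 and 80. For F261A/A284V against RBPJ WT they were 84 and 107 within replicates 1 and 2, and 426 and 398 within replicates 3 and 4. For F261A/A284V against empty vector, 81 were higher and 53 lower within replicates 3 and 4. Leaving out 1 sample from the set-adjusted fit gave 3 to 4 calls for RBPJ WT against empty vector, 2 to 2 for F261A/A284V against RBPJ WT and 0 to 1 for F261A/A284V against empty vector, with 3 in the first of these without the merged RBPJ WT replicates 1 and 2. edgeR on reads summed over near-identical libraries, with the set as a term, gave 4, 2 and 1. These checks of the set-adjusted fit, and counting near-identical libraries once in the difference between sets, were chosen after seeing the data. The difference between sets was called for 2 receptor genes with F261A/A284V against RBPJ WT and for 0 with near-identical libraries counted once. Over all 11691 genes it was called for 67 and for 7. The cause of these shifts was not tested. In the rescue, the fits within a set, with the replicate block, and with every library counted took near-identical libraries as separate samples. Their p-values thus rest in part on counting noise and do not measure spread between samples alone.

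These log2 fold changes turned round, none of them called. F261A/A284V against empty vector gave Ccr2 0.0638 with edgeR, 0.0641 with DESeq2, 0.773 with near-identical libraries counted once, 0.0043 in the set-adjusted fit, 0.134 in replicates 1 and 2 and -0.65 to 0.49 with 1 library left out. In that comparison Ccr8 was -0.0248 and Cxcr4 -0.15 with near-identical libraries counted once, Cxcr4 -0.0622 in replicates 3 and 4 and -0.0875 to 0.13 with 1 library left out, Ccr9 -0.0019 and Cxcr6 -0.173 in replicates 1 and 2, and Cxcr6 -0.12 to 0.29 with 1 library left out. Against RBPJ WT, with near-identical libraries counted once, Ccr4 was -0.11, Ccr9 -0.186 and Cxcr4 -0.136. In replicates 1 and 2 Ccr4 was -0.10 and Ccr9 -0.81, and in replicates 3 and 4 Cxcr4 was -0.0441. With 1 library left out, Ccr4 ranged from -0.0556 to 0.23, Ccr9 from -0.28 to 0.74 and Cxcr4 from -0.0842 to 0.14. For RBPJ WT against empty vector, Ccr7 was 0.012 in replicates 1 and 2, and with 1 library left out Ccr7 ranged from -0.31 to 0.0771 and Cxcr4 from -0.11 to 0.11. Ccr9 between the hairpin groups ranged from -0.0348 to 0.76. Cxcr3 and S1pr1 had few reads per library, which limits what could be detected for them.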
